A study of Homo sapiens with 60 samples.

Results

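The 12S and 16S ribosomal RNAs of the mitochondrion, encoded by MT-RNR1 and MT-RNR2, were followed through every library of a series in which A549 cells were treated with herbal water extracts. They are 2 of the 60675 gene identifiers in the count table and were selected on their CPM and their 12S to 16S ratio in these same libraries, in which they had stood apart in earlier results, so their levels and their ratio are given below as descriptions and without a test. A549 is an established human line from a non-small cell lung carcinoma. Each culture was treated for 24 h. The extracts of 1 herb were those of Aconiti Lateralis Radix Preparata, of Bupleuri Radix, of Citri Unshius Pericarpium and of Cimicifugae Rhizoma, and the mixed prescriptions were Yijung-tang, Banhasasim-tang and Bojungikgi-tang, each named below by its first word. The doses were 20, 100 and 500 µg/mL (low, medium and high), except for Aconiti, which was given at 14.4, 72 and 360 µg/mL because, per the design text, an extract with an IC20 under 500 µg/mL was used at its IC20 and at dilutions of it. The reference was vehicle, labelled 0.1% DMSO on the samples and 2% in the design text. Each group had 3 libraries, apart from Bojungikgi, which had 1 library at each dose and therefore no spread of its own. The labels do not say whether replicates came from separate cultures, so the spread given here may be technical.

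Both RNAs are transcribed from the heavy strand of the circular mitochondrial genome. 12S rRNA is the RNA of the small subunit of the mitochondrial ribosome and 16S rRNA that of the large subunit. The 2 genes lie side by side with the gene of tRNA-Val between them, and the primary transcript is cut at the tRNAs, which releases the rRNAs and mRNAs. The factor MTERF1 binds just downstream of the 16S gene, and human mitochondrial rRNAs carry short tails of A. The mitochondrial ribosome makes 13 proteins, all of them subunits of the respiratory chain or ATP synthase.

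In the GENCODE 29 annotation of GRCh38, MT-RNR1 (ENSG00000211459) is the 954-base segment chrM:648-1601 and MT-RNR2 (ENSG00000210082) the 1559-base segment chrM:1671-3229, both on the plus strand, each a single exon annotated as mitochondrial rRNA. The 149 bases that join them are shown because they hold the 3′ end of 12S, the whole of tRNA-Val and the 5′ end of 16S, where the processing of the shared transcript separates the 2 members. The 69 bases of tRNA-Val are in capitals, with 40 bases of rRNA on either side, read 5′ to 3′ from the GENCODE 29 transcripts at chrM:1562-1710, plus strand.

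12S, tRNA-Val, 16S: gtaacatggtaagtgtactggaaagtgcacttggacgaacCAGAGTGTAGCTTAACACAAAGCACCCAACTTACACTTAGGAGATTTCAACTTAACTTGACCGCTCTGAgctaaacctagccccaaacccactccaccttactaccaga

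The base composition of the 2 members was close, with 33.0% A in 12S and 35.1% A in 16S. 12S held 9 runs of 4 or more A, the longest of 6 bases, and 16S held 13, the longest of 7 bases. Per kilobase that is 9.43 runs in 12S and 8.34 in 16S.

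Levels are CPM, the counts of each library brought to a common total and scaled by the trimmed mean of M-values (TMM). The libraries held 17793655 to 30188211 counts, and each held at least 25601 counts of 12S and 381240 of 16S, so that counting error was small beside the spread between replicates. Markers of A549 as an epithelial line were high, and the alveolar type II, fibroblast, leukocyte and endothelial lists summed to far lower levels. The libraries are bulk samples, in which more cells with an RNA and more of that RNA per cell cannot be told apart. All sample titles carry the same batch name, BatchB. The sample descriptions differ in their first element, called set here, which is B1 for vehicle and 5, 6, 7 or 8 for the extracts, and the labels do not say what it stands for. Aconiti and Bupleuri have set 6, so that set and extract cannot be told apart against vehicle, and Bupleuri at the same dose level serves as a second reference within the set.

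12S rRNA was far higher with Aconiti than with vehicle at all 3 doses and was highest at the high dose. The 3 vehicle libraries had 1617, 1450 and 1651 CPM. At 14.4 µg/mL Aconiti the libraries had 3664, 3610 and 3780 CPM, at 72 µg/mL 21823, 25993 and 22961 CPM, and at 360 µg/mL 35687, 42759 and 44582 CPM. The 4 ranges follow the dose without overlap. The log2 fold against vehicle was 1.23 ± 0.18 (SE) at the low dose (2.34-fold), 3.91 ± 0.20 at the medium dose (15.0-fold) and 4.71 ± 0.20 at the high dose (26.1-fold). In means, 12S had 41009 ± 4699 CPM at the high dose and 1572 ± 107.5 CPM with vehicle (SD, n = 3 each). Only 19 of the 17268 genes tested had a larger log2 fold than 12S at the high dose, and 20 at the medium dose.

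16S rRNA was also higher with Aconiti at the high and medium doses, but by much less, and not at the low dose. The vehicle libraries had 22594, 20585 and 22060 CPM. At 14.4 µg/mL Aconiti they had 24272, 22942 and 21031 CPM, at 72 µg/mL 57668, 65450 and 54387 CPM, and at 360 µg/mL 99624, 96603 and 116485 CPM. The low dose overlapped vehicle, whereas the medium and high doses lay above both and did not overlap each other. The log2 folds against vehicle were 0.07 ± 0.08 (1.05-fold), 1.44 ± 0.08 (2.72-fold) and 2.26 ± 0.09 (4.79-fold) at the low, medium and high doses. In means, 16S had 104238 ± 10714 CPM at the high dose and 21746 ± 1041 CPM with vehicle (SD, n = 3 each).

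**Figure D1:**
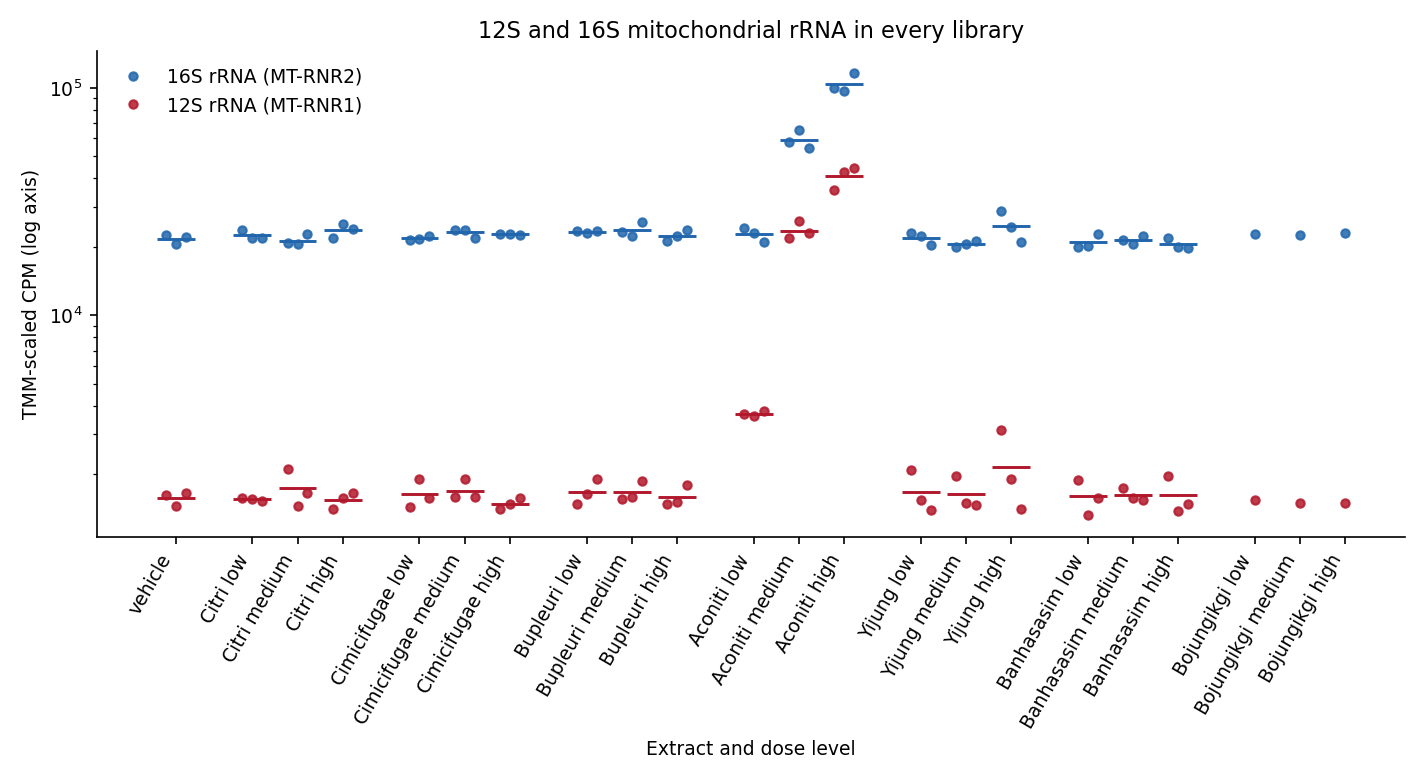
Level of 16S rRNA (blue) and 12S rRNA (red) in TMM-scaled CPM on a log axis, 1 point per library and a bar at the mean of each group with 3 libraries, for vehicle and for each extract at its low, medium and high dose. 12S stands above all other groups at the 3 Aconiti doses and 16S at the medium and high doses, while the other extracts lie at the level of vehicle, with Yijung high replicate 1 above its 2 companions for both RNAs.

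Because the 2 RNAs moved by different amounts, the ratio of 12S to 16S counts within a library changed as well. The ratio was 0.0716, 0.0704 and 0.0748 in the vehicle libraries. It was 0.151, 0.157 and 0.180 at the low dose of Aconiti, 0.378, 0.397 and 0.422 at the medium dose, and 0.358, 0.443 and 0.383 at the high dose. The low dose lay above vehicle and below the other doses, and the medium and high doses overlapped although both RNAs themselves were higher at the high dose. The mean log2 ratio less that of vehicle was 1.17 at the low dose, 2.47 at the medium dose and 2.44 at the high dose. A ratio within a library does not depend on scaling between libraries, and it shows that the 2 RNAs changed unequally, not that either one stayed unchanged. Per kilobase of gene, high-dose Aconiti had 42986 ± 4925 CPM of 12S and 66862 ± 6872 CPM of 16S, and vehicle had 1648 ± 112.7 and 13949 ± 667.7 CPM (SD, n = 3 each). The per-length ratio was thus 0.645 ± 0.071 with high-dose Aconiti and 0.118 ± 0.004 with vehicle, so 12S was the lower of the pair per length in both.

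**Figure D2:**
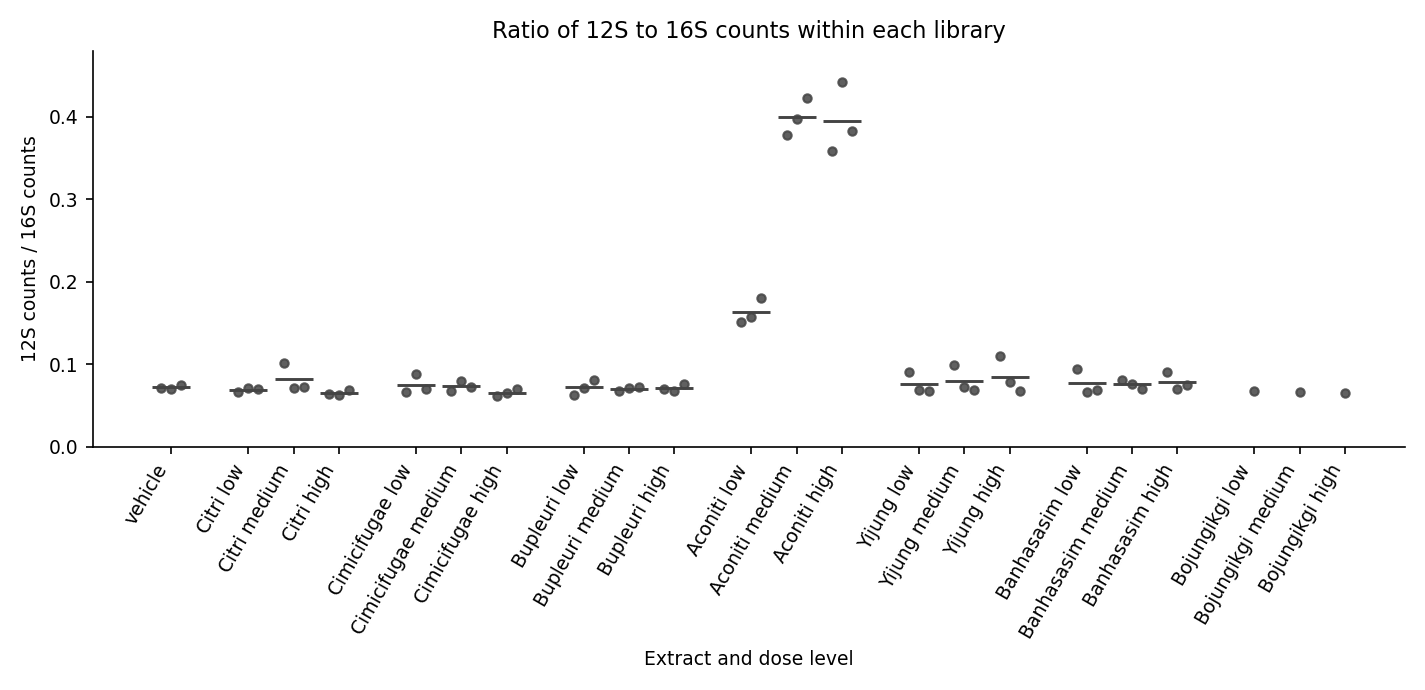
Ratio of 12S to 16S counts in each library (points), with a bar at the mean of each group with 3 libraries. The 3 low-dose Aconiti libraries lie between 0.151 and 0.180 and the 6 medium- and high-dose libraries between 0.358 and 0.443, all above the 51 other libraries, which lie between 0.0615 and 0.109.

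Within the set that Aconiti shares with Bupleuri the folds were somewhat smaller than against vehicle. Bupleuri libraries had 1472 to 1911 CPM of 12S, 21153 to 25817 CPM of 16S and ratios of 0.0629 to 0.0814 (n = 9). Against Bupleuri at the same dose level, a reference chosen after the data were seen, the log2 folds of 12S were 1.14 ± 0.18 at the low dose, 3.82 ± 0.20 at the medium dose and 4.68 ± 0.20 at the high dose. Those of 16S were -0.034 ± 0.08, 1.31 ± 0.08 and 2.22 ± 0.09 in the same order. The sign of 16S at the low dose thus differed between the references, and at neither did it leave the spread between replicates. The doses are matched by level and not by concentration, 360 against 500 µg/mL at the high level.

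No library of the other extracts reached the 12S level or the ratio of any Aconiti library. None reached the 16S level of medium- or high-dose Aconiti, whereas the 16S of low-dose Aconiti lay within the range of the other extracts. Across the 48 libraries of these other extracts 12S ranged over 1330 to 3144 CPM (median 1567), 16S over 19753 to 28748 CPM (median 22353) and the ratio over 0.0615 to 0.109 (median 0.0696). In the order of the 22 groups by 12S, the Aconiti doses took the first places without overlap, followed by Yijung high, and from Yijung high downwards every group with 3 libraries overlapped its neighbour. The order by 16S began with Aconiti high and Aconiti medium, and Aconiti low stood at rank 11, in the middle of the other groups.

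Yijung high was the only other group whose mean 12S was above 2000 CPM, and 1 library set it. Its libraries had 3144, 1914 and 1407 CPM of 12S and 28748, 24402 and 20946 CPM of 16S, so replicate 3 lay below all 3 vehicle libraries in 12S. The mean was 2155 ± 893.2 CPM for Yijung high and 1572 ± 107.5 CPM for vehicle (SD, n = 3 each), a log2 fold of 0.45 ± 0.18. Cimicifugae high had all 3 libraries of 16S above vehicle (22884, 22781 and 22635 CPM, against 22594, 20585 and 22060 CPM), a log2 fold of 0.07 ± 0.08. The Cimicifugae high ratio, 0.0615, 0.0649 and 0.0693, and the Citri high ratio, 0.0642, 0.0624 and 0.0687, lay below all vehicle libraries, by far less than the Aconiti ratios lay above them. Bojungikgi, with 1 library a dose, had 1541, 1499 and 1492 CPM of 12S and ratios of 0.0675, 0.0668 and 0.0650 at the low, medium and high doses.

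Part of the variation outside Aconiti followed the replicate number within a set. In set 7, which holds Yijung and Banhasasim, the 6 libraries numbered 1 had ratios of 0.0804 to 0.109 and the other 12 had 0.0660 to 0.0784, without overlap. The same 6 libraries had 74.4 to 234.4 CPM summed over 29 gene entries, and the other 12 had 29.99 to 58.4 CPM. The entries come from classes of RNA that are mostly without a poly(A) tail (7SL, RNase P and MRP RNAs, small nuclear and nucleolar RNAs, histone mRNAs). RMRP was entered more than once, and whether each RNA lacked a tail in these cells was not tested. Outside set 7 the 2 measures did not always go together. Cimicifugae high replicate 1 had 230.8 CPM and a ratio of 0.0615, and Bupleuri low replicate 1 had 242.7 CPM and 0.0629, whereas Citri medium replicate 1 had 286 CPM and 0.102. Among the 29, the 7SL RNAs RN7SL1 and RN7SL2 had the highest means, 30.02 and 44.36 CPM with vehicle and 44.6 and 58.21 CPM with high-dose Aconiti. Next came the histone gene HIST1H2AC, with 10.34 and 16.26 CPM in the same order (log2 fold 0.66, edgeR adjusted p 3.1e-06). In set 6, Bupleuri replicates numbered 3 had 1799 to 1911 CPM of 12S, and those numbered 1 and 2 had 1472 to 1641 CPM. Citri medium replicate 1 had a ratio of 0.102 where its companions had 0.0708 and 0.0727, and it also had the lowest length balance of all libraries. Length balance is the mean log2(CPM + 1) of 4926 protein-coding genes over 6000 bases less that of 380 genes under 1500 bases, and it was -0.15 there and 0.33 to 1.05 elsewhere. The part of these in the ratio was not tested.

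Both measures also differed between some Aconiti libraries and their references. The summed level of the 29 entries was 45.9 to 146.7 CPM in vehicle, 54.7 to 76.2 in the low-dose libraries, 54.1 to 102.2 in the medium-dose libraries and 101.2 to 156.7 CPM in the high-dose libraries, so that all doses overlapped vehicle, although the high dose lay above the low dose and 2 of its 3 libraries lay above all vehicle libraries. Within set 6 it was 101.2 to 156.7 CPM in Aconiti high and 43.7 to 50 CPM in Bupleuri high, without overlap. Bupleuri medium replicates 1 and 2 had 251.7 and 157.2 CPM and Bupleuri low replicate 1 had 242.7 CPM, above every high-dose Aconiti library. Bupleuri medium replicate 3 and Bupleuri low replicates 2 and 3 had 48.19, 77.27 and 54.14 CPM. Length balance was 0.41 to 0.92 in the high-dose Aconiti libraries, 2 of them below all vehicle libraries, and 0.83 to 1.01 in vehicle. With length balance as a covariate the log2 fold of 12S at the high dose was 4.53 and that of 16S 2.28. The part of the 29 entries in these folds was not tested. Some cell type markers moved with the high dose as well, where 17% of all genes tested rose and 15.7% fell. Of 6 fibroblast markers 4 were tested and 2 fell, COL1A1 (log2 fold -0.57, adjusted p 3.3e-08) and COL3A1 (-1.08, adjusted p 0.00011), and their summed level was 21.1 to 24.8 CPM with high-dose Aconiti and 34.6 to 35.6 CPM with vehicle. Of 7 epithelial markers KRT7 rose (log2 fold 0.62, adjusted p 0.00036), with sums of 16736 to 20779 and 17889 to 18803 CPM, and of 7 alveolar type II markers 2 were tested and ABCA3 rose (0.39, adjusted p 0.0231), with sums of 26.0 to 33.2 and 21.4 to 24.6 CPM. COL1A1 was also called lower in edgeR with Yijung high (log2 fold -1.09, adjusted p 8.6e-15) and Yijung medium (-1.37, adjusted p 8.9e-18). The log2 folds of 12S were 0.45 and 0.06 in those groups, and KRT7 and ABCA3 were called in neither. The part of these markers in the levels of 12S and 16S was not tested. How rRNA was removed or mRNA enriched during library preparation is not given in the sources used here.

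As shares of all counts, the rRNAs took more of the library and the mRNAs of the same genome less. 12S made up 3.74 ± 0.32% of all counts with high-dose Aconiti and 0.160 ± 0.010% with vehicle, and 16S 9.52 ± 0.74% and 2.21 ± 0.09% (SD, n = 3 each). All mitochondrially encoded genes together took 17.5 ± 1.3% of counts with high-dose Aconiti and 8.30 ± 0.34% with vehicle, while the 13 mRNAs took 4.20 ± 0.48% and 5.92 ± 0.26%. Within the mitochondrial counts the 2 rRNAs therefore held 28.6 ± 0.6% with vehicle, 30.6 ± 1.0% at the low dose, 55.1 ± 1.5% at the medium dose and 76.0 ± 1.1% at the high dose. At the medium dose the mRNA share, 6.31 ± 0.43%, overlapped vehicle, so that the gain of the rRNAs there was not matched by a share of mRNA below that of vehicle. This reading depends on the reference. The Aconiti medium libraries had 5.89, 6.75 and 6.30%, and those of Bupleuri medium, in the same set, had 6.79, 6.40 and 7.29%. The 51 libraries outside Aconiti had 23.3 to 33.7% of mitochondrial counts from the rRNAs. A larger share of 2 RNAs lowers the share of every other RNA in a library, and TMM scaling is made to offset this by assuming that most genes do not change. After scaling, the median log2 fold of all genes against vehicle was 0.0102 at the low dose, 0.00960 at the medium dose and -0.00455 at the high dose. The method itself brings the typical fold near 0, so these medians cannot show that the offset was right.

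**Figure D3:**
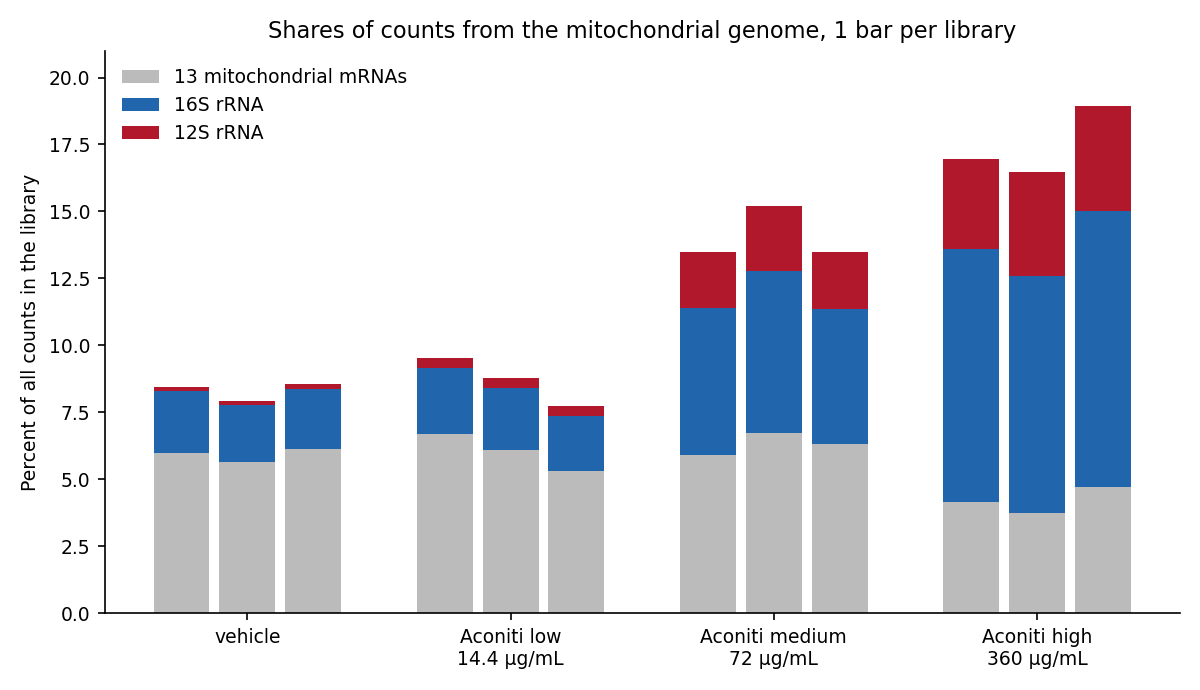
Share of all counts in each library from the 13 mitochondrial mRNAs (grey), 16S rRNA (blue) and 12S rRNA (red), stacked, for vehicle and rising doses of Aconiti, 1 bar per library. The rRNA part grows at 72 and 360 µg/mL, and the grey part is smallest at 360 µg/mL, where it is 3.75 to 4.70%.

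The 13 mitochondrial mRNAs were tested with edgeR's quasi-likelihood test and Benjamini-Hochberg adjustment over all 17268 genes. Their values were not used to choose the members, but the tests are independent of that choice only in part. The mRNAs come from the same libraries, and most are encoded on the same strand as the rRNAs. Their list was also chosen with earlier results of these data known. With high-dose Aconiti against vehicle 3 of 13 rose and 8 fell, with 2 past neither limit, where 17% of all genes tested rose and 15.7% fell. At the medium dose 4 rose and 5 fell, where 1.64% and 0.654% of all genes did. At the low dose 0 of 13 were called, where 0.0695% of all genes were called, all of them higher. DESeq2 also called 0 there, and 2 of 13 had an unadjusted p under 0.05 in edgeR.

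The mRNAs that rose at the high dose lie at the far end of the heavy-strand transcript or opposite it, and those that fell lie in its middle. MT-CYB, the mitochondrially encoded subunit of complex III, had 9795 ± 2021 CPM with high-dose Aconiti and 3785 ± 406.6 CPM with vehicle, a log2 fold of 1.37 ± 0.17 (adjusted p 1.1e-08). MT-ND5, a subunit of complex I, had a log2 fold of 1.10 ± 0.20 (adjusted p 3.9e-05), and MT-ND6, the complex I subunit encoded on the other strand, 1.12 ± 0.28 (adjusted p 0.00198). MT-CO3, a core subunit of cytochrome c oxidase (complex IV), had 3996 ± 786.3 CPM with high-dose Aconiti and 9336 ± 327 CPM with vehicle and fell by 1.22 ± 0.13 on the log2 scale (adjusted p 2.0e-10). MT-ND4L and MT-ND4 of complex I, MT-ATP6 and MT-ATP8 of ATP synthase, MT-ND3 of complex I and MT-CO1 and MT-CO2 of complex IV fell with log2 folds of -1.15 to -0.73 (adjusted p 1.0e-09 to 0.0234). MT-ND1 and MT-ND2, the complex I genes next downstream of 16S, had log2 folds of -0.23 ± 0.19 and -0.12 ± 0.20 (adjusted p 0.368 and 0.682). MT-ATP8 and MT-ATP6, and MT-ND4L and MT-ND4, overlap on the genome, so that the estimated counts of each pair are uncertain between its members. The labels name a directional library kit, but the strand setting of the counting is not given, so reads from MT-ND6 and from the transcript opposite it cannot be told apart.

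The mRNAs did not all follow the dose as 12S and 16S did. MT-ND5 had 2662 ± 196.6 CPM with vehicle, 3413 ± 159.3 at the low dose, 15237 ± 1101 at the medium dose and 5716 ± 1187 at the high dose (SD, n = 3 each). Its 3 medium-dose libraries, at 15305.6, 16301.9 and 14103.2 CPM, stood above all others, and its log2 fold against vehicle was 2.52 ± 0.21 there (adjusted p 7.6e-12). MT-ND6 was likewise highest at the medium dose, with 2026 ± 372.5 CPM there and 719.2 ± 187 CPM at the high dose, and its log2 fold at the medium dose was 2.61 ± 0.30 (adjusted p 2.3e-08). MT-ND2 rose at the medium dose, with a log2 fold of 0.93 ± 0.20 (adjusted p 0.00407). MT-CYB had a log2 fold of 1.44 ± 0.17 at the medium dose (adjusted p 3.7e-08), and MT-CO3 fell by 1.14 ± 0.13 (adjusted p 1.3e-08), both near their high-dose values.

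**Figure D4:**
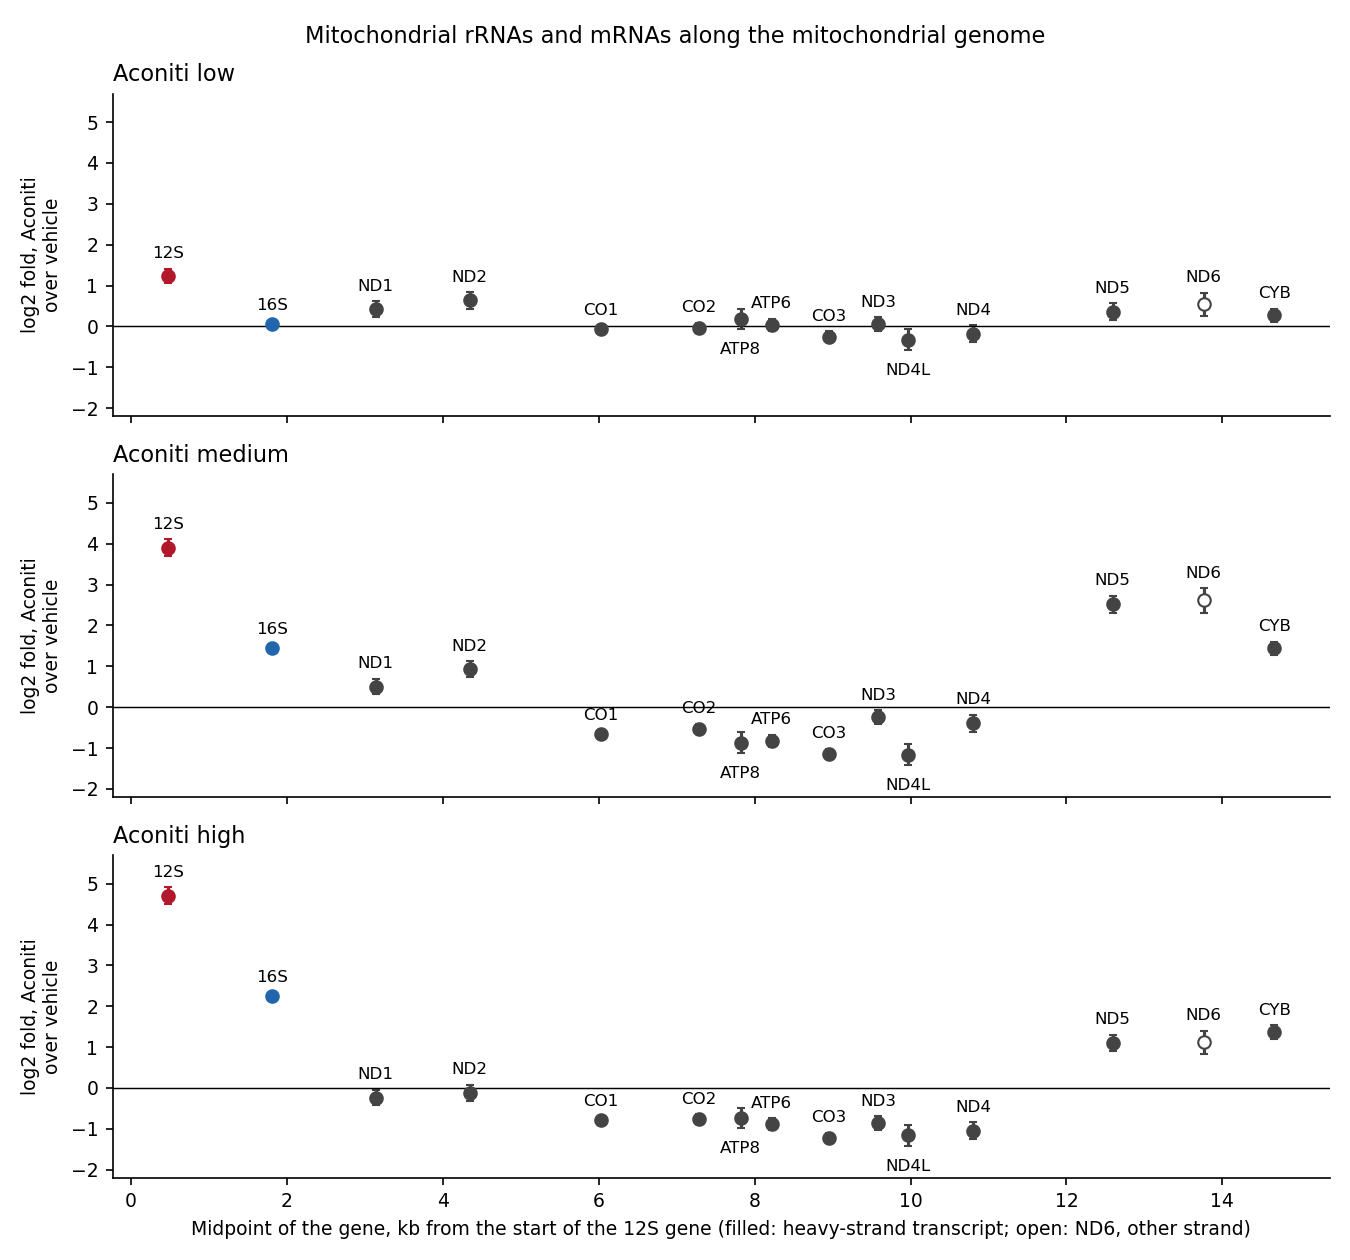
Log2 fold of Aconiti over vehicle (points, with bars of 1 SE) for 12S, 16S and the 13 mRNAs, plotted at the midpoint of each gene in kb from the start of the 12S gene, in 1 panel per dose, and with ND6 open because it lies on the other strand. 12S has the largest value in each panel, 16S stands next to it at the high dose, and from CO1 to ND4 the values are below 0 at the medium and high doses.

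Between the high and low doses of Aconiti, which share a set, 2 of 13 mRNAs rose (MT-ND5 and MT-CYB) and 10 fell, where 11.4% and 11.3% of all genes did. Against Bupleuri high, 3 rose and 8 fell, where 11.2% and 11.8% of all genes did. For 12S and 16S the log2 folds of high against low dose were 3.48 ± 0.19 and 2.20 ± 0.09 within Aconiti, and -0.07 ± 0.18 and -0.06 ± 0.08 within Bupleuri.

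Outside Aconiti, few mRNAs of the 13 were called in the comparisons with vehicle. Yijung high had 2 called higher, MT-CO2 (log2 fold 0.45 ± 0.12, adjusted p 0.0127) and MT-ATP8 (0.88 ± 0.25, adjusted p 0.0232), where 3.76% of all genes rose. This count was 0 without vehicle replicate 1 or without Yijung high replicate 2, and 1 without vehicle replicate 2, vehicle replicate 3 or Yijung high replicate 3. Yijung medium had 1 called lower, MT-CO1 (log2 fold -0.30 ± 0.09, adjusted p 0.0189), where 3.83% of all genes fell. It was not called without vehicle replicate 1, Yijung medium replicate 1 or Yijung medium replicate 2. In the other 13 comparisons of an extract with vehicle, edgeR called 0 of the 13 mRNAs, and 13 of the 169 tests had an unadjusted p under 0.05. Of all genes, 0.0116%, 0.0347% and 1.96% were called there for Cimicifugae at the low, medium and high doses, 0.00579%, 0.0174% and 0.0463% for Citri, 0.712% for Bupleuri high, 0.0116% for Yijung low and 0.185% for Banhasasim high, and 0% for the lower doses of Bupleuri and Banhasasim.

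Among the other RNAs of the mitochondrial genome, the 22 tRNAs together had 0 to 18 counts a library and none was tested. Copies of mitochondrial sequence in the nuclear genome could share reads with these genes. The 13 nuclear MTRNR2L genes, which resemble 16S, had 0 to 12 counts a library in all, too few to alter its level. Nuclear copies named after the mitochondrial mRNA genes had counts equal to 1.07 to 1.72% of those of the 13 mRNAs in each library. These counts were uneven between genes. MTATP6P1 had most of them, a mean of 13263.9 counts with vehicle and 10860.1 with high-dose Aconiti, followed by MTND2P28 with 3422.2 and 2551.9. The share is therefore larger for MT-ATP6 than the pooled share, and its part in the fold of MT-ATP6 was not tested.

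The proteins that meet the rRNAs in the mitochondrial ribosome are all encoded in the nucleus, and more of their mRNAs were called higher than lower with high-dose Aconiti, by small amounts. Of 30 small-subunit proteins 6 rose and 1 fell, and the median log2 fold was 0.12, where that of all genes was -0.00455. DAP3, a GTP-binding protein of the small subunit, had 103.7 ± 5.9 CPM with high-dose Aconiti and 79.0 ± 1.4 CPM with vehicle (log2 fold 0.39 ± 0.07, adjusted p 1.7e-05), and MRPS34, MRPS10 and MRPS26 had log2 folds of 0.45, 0.35 and 0.35. DAP3 and MRPS10 were also called higher with Yijung high (0.271 and 0.225) and Yijung medium (0.213 and 0.230), and MRPS34 and MRPS26 were not. Of 52 large-subunit proteins 14 rose and 2 fell, with a median of 0.13, led by MRPL41, MRPL23, GADD45GIP1 and MRPL52 at 0.51, 0.51, 0.49 and 0.47. Those that fell, named after their values were seen, were PTCD3 of the small subunit (-0.13) and MRPL19 and MRPL35 of the large (-0.19 and -0.15). The share called higher, 6 of 30 and 14 of 52, stood near the 17% of all genes for the small subunit and above it for the large.

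These counts rested on single libraries and on the length balance. The small-subunit count of 7 was 4, all higher, without vehicle replicate 1 or 2 or without Aconiti high replicate 2 or 3. The large-subunit count of 16 was 5 and 7 without vehicle replicates 1 and 2, and 3 and 8 without Aconiti high replicates 2 and 3. With length balance as a covariate 5 small-subunit proteins rose and 10 fell, and 8 large-subunit proteins rose and 21 fell, so the balance of directions turned. Against Bupleuri high, 3 and 2 were called, all higher. At the medium and low doses edgeR and DESeq2 called 0 of 30 and 0 of 52, and in edgeR 4 and 2 had an unadjusted p under 0.05 at the medium dose and 1 and 0 at the low dose.

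Of 9 genes whose products modify or assemble 12S and its subunit, 2 rose and 0 fell with high-dose Aconiti. Of all genes 17% rose and 15.7% fell, so that 2 of 9 is near the background. TFB1M, which dimethylates 2 adenines near the 3′ end of 12S, had 9.38 ± 0.72 CPM with high-dose Aconiti and 5.69 ± 0.08 CPM with vehicle, a log2 fold of 0.72 ± 0.12 (adjusted p 5.5e-06). NSUN4, a 12S cytosine methyltransferase, had a log2 fold of 0.25 ± 0.07 (adjusted p 0.00352). The rise of TFB1M was not confined to Aconiti. With Yijung medium it had a log2 fold of 0.44 ± 0.12 (edgeR adjusted p 0.0151), where 12S had 0.06 ± 0.18. TFB1M was not called with Yijung high (0.36 ± 0.12, adjusted p 0.0595), and NSUN4 with neither. Of 18 genes acting on 16S and the large subunit, 3 rose and 2 fell, near the shares of all genes. MTG1, a GTPase of large-subunit assembly, RPUSD3, a pseudouridine synthase family member, and NGRN, which binds 16S, had log2 folds of 0.35, 0.35 and 0.34, and FASTKD2, an RNA-binding protein needed for 16S, fell by 0.32 ± 0.05 (adjusted p 1.0e-05). The other that fell was MTERF4 (-0.18), named after its value was seen.

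Of 20 genes of mitochondrial RNA processing and decay, 2 rose and 8 fell at the high dose, where 17% of all genes rose and 15.7% fell. FASTKD5, which takes part in processing mRNA ends that no tRNA borders, had 38.2 ± 0.4 CPM with high-dose Aconiti and 58.0 ± 0.4 CPM with vehicle, and fell by 0.60 ± 0.06 on the log2 scale (adjusted p 3.4e-11). PDE12, which removes A tails from mitochondrial RNA, fell by 0.44 ± 0.06 (adjusted p 4.9e-07), TRMT10C, a subunit of the RNase P that cuts the 5′ end of mitochondrial tRNAs, fell by 0.40 ± 0.10 (adjusted p 0.00208), and FASTK rose by 0.38 ± 0.11 (adjusted p 0.00571). Named after their values were seen, MTPAP, the poly(A) polymerase of the mitochondrion, fell by 0.23 ± 0.05 (adjusted p 0.000645), ELAC2, which cuts the 3′ end of its tRNAs, fell by 0.17 ± 0.06 (adjusted p 0.0389), and SUPV3L1, the helicase of the mitochondrial degradosome, rose by 0.18 ± 0.05 (adjusted p 0.00359). The remaining genes of this list that fell were KIAA0391 (-0.34), FASTKD3 (-0.32) and FASTKD1 (-0.16), also named after their values were seen. Of 14 genes of mitochondrial transcription and replication, 2 rose and 4 fell, against the same 17% and 15.7% of all genes. MTERF1, the termination factor that binds downstream of 16S, had 10.4 ± 0.9 CPM with high-dose Aconiti and 15.2 ± 0.4 CPM with vehicle, a log2 fold of -0.54 ± 0.08 (adjusted p 3.0e-07). TOP1MT, the mitochondrial topoisomerase I, had 0.50 ± 0.07 (adjusted p 2.9e-07), MTERF3 0.25 ± 0.09 (adjusted p 0.0362), and TFAM, which packages mitochondrial DNA and activates its promoters, -0.24 ± 0.05 (adjusted p 0.00037). The other 2 that fell were TWNK (-0.18) and MGME1 (-0.16), named after their values were seen. At the medium dose edgeR called 1 of these 61 genes, FASTKD5 (log2 fold -0.23 ± 0.06, adjusted p 0.0188), where 1.64% of all genes rose and 0.654% fell, and DESeq2 called 4. At the low dose both tools called 0 of 61, and 0 had an unadjusted p under 0.05 in edgeR.

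Over the 19 groups with 3 libraries, the genes whose mean log2 CPM was most like that of the members were listed by Pearson's r, as a description in which the Aconiti groups weigh most. 12S and 16S had r = 0.97 with each other. Of the mRNAs, MT-CYB came closest to both (r = 0.96 with 12S and 0.95 with 16S), followed by MT-ND5 (0.87 and 0.79) and MT-ND6 (0.85 and 0.76), and MT-CO3 (-0.97 and -0.91) and MT-CO2 (-0.94 and -0.92) ran opposite. Nuclear genes with a mean under 5 CPM, and those dropped by a filter on names, were left out of this ranking. Among the rest, the nuclear genes most like 12S were CDC42EP1 (r = 0.95), DDIT4 (0.94), PCK2 (0.94), OSBPL6 (0.93), CALCOCO2 (0.93) and VLDLR (0.93), and those most like 16S were CDC42EP1 (0.95), EML2 (0.94), LONP1 (0.94), SPX (0.94), CLGN (0.93) and DDIT4 (0.93). Their range was far smaller than that of 12S. DDIT4, an inhibitor of mTORC1 signalling, had 175.7 ± 3.4 CPM with vehicle, 226.6 ± 13.6 at the low dose, 336.2 ± 16.2 at the medium dose and 521.1 ± 49.6 CPM at the high dose. PCK2, the mitochondrial phosphoenolpyruvate carboxykinase, had 36.0 ± 0.2, 51.1 ± 6.5, 89.6 ± 5.4 and 152.2 ± 25.3 CPM in the same order, and LONP1, a protease of the mitochondrial matrix, 94.4 ± 1.7, 102.0 ± 8.6, 120.7 ± 4.0 and 173.2 ± 22.5 CPM (SD, n = 3 each). The likeness did not extend to Yijung medium. DDIT4, PCK2 and LONP1 had 249.3 ± 19.5, 56.0 ± 9.9 and 104.8 ± 9.6 CPM there, means above those at low-dose Aconiti. 12S had 1641 ± 285.8 CPM with Yijung medium and 3685 ± 86.7 CPM with low-dose Aconiti.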

How the data were processed

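Messenger RNA libraries (directional kit, paired 100 bp reads, RNA integrity number above 7 per the labels' protocols) were made for 60 samples in 22 groups. The table deposited by the authors holds RSEM expected counts per Ensembl gene on GRCh38, not normalized, and the submitters' processing notes name RSEM 1.3.3 and STAR 2.7.3a, besides Trim Galore 0.6.5 and FastQC 0.11.9; the annotation release and strand setting are not given in the sources used here. Of its 269 sample columns 209 belong to no sample used here. Values (9.37% not whole) were rounded for the tests. GENCODE 29 gave symbols for 57055 of 60675 identifiers. edgeR 4.0.16 (R 4.3.3) fitted 57 libraries in 19 groups together, with TMM factors over all 60 libraries, the filterByExpr filter (17268 genes) and quasi-likelihood tests with 38 residual degrees of freedom; calls are at a Benjamini-Hochberg adjusted p under 0.05 within each of 27 comparisons. Bojungikgi entered the scaling only. The ratio uses unrounded counts. The fit was checked on simulated counts for Aconiti high against vehicle. It found 55 of 95 genes changed 1.5-fold and 81 of 98 changed 2-fold, with 8 false calls. Changes of 1.5-fold were thus often missed, and smaller ones were not simulated. The 2 members and all gene lists were chosen with earlier results of these data known; from each list the text names up to 4 called genes with the largest change in Aconiti high against vehicle and at least 5 CPM, and for likeness the 6 nearest nuclear genes. Alternatives were another scaling, no filter, fewer libraries, DESeq2 1.42.0, a replicate block, a length covariate and leaving out libraries; Bupleuri as reference, and the removal of Citri medium 1 and of the set 7 libraries numbered 1, were added after seeing the data. No replicates of a group were near-identical (lowest chi-square per degree of freedom 2.03).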

Additional observations from a re-analysis of the deposited data

Results flagged for a closer look

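The effect of dose on the mitochondrial mRNAs differed between the extracts that share set 6. The log2 fold of high against low dose in Aconiti less that in Bupleuri was tested as an interaction in the shared edgeR quasi-likelihood fit, and 9 of the 13 mRNAs passed the adjusted threshold, where 9.95% of all 17268 genes did. MT-CYB was the 1 with a higher difference, at 0.97 ± 0.23 (SE, adjusted p 0.00353). The 8 with a lower one were MT-CO1, MT-CO2, MT-CO3, MT-ATP6, MT-ATP8, MT-ND3, MT-ND4 and MT-ND4L, at -1.16 to -0.73 (adjusted p 1.2e-05 to 0.0366). MT-ND1, MT-ND2, MT-ND5 and MT-ND6 had adjusted p-values of 0.123, 0.0756, 0.189 and 0.413. The doses were 360 against 14.4 µg/mL for Aconiti and 500 against 20 µg/mL for Bupleuri.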

How the results depend on the processing

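Of 254 alternative values over 17 results, 225 stayed within the spread between replicates (folds and ratios) or within 1.5 times the count, and of the log2 folds and ratios only 16S at the low dose changed sign, with Bupleuri as the reference. The exceptions, against the values reported, were these. With length balance as a covariate, 15 small-subunit proteins (5 higher, 10 lower) and 29 large-subunit proteins (8 higher, 21 lower) were called with high-dose Aconiti, and the 12S log2 folds were 1.14, 3.78 and 4.53 at the low, medium and high doses. With Bupleuri as the reference, 3 and 2 such proteins were called, 12S had 1.14 at the low dose, and 16S had -0.0342 (low dose) and 1.31 (medium dose). With only the 6 libraries compared, Yijung high had 4 mRNAs called and Yijung medium 0, and Yijung medium also had 0 without the set 7 libraries numbered 1. The causes were not tested. Leaving out 1 library at a time gave 4 to 8 small-subunit and 3 to 19 large-subunit proteins, 0 to 2 mRNAs for Yijung high and 0 to 1 for Yijung medium, against 10 to 11 mRNAs for Aconiti high, 8 to 9 for Aconiti medium, 12S log2 folds of 4.66 to 4.80 and 16S log2 folds of 2.20 to 2.33 at the high dose. The replicate numbers were not taken to pair the libraries, since every pair's correlation was over 0.1 in 0 of 27 comparisons, although every library was best matched by its own number in 2 and the ratio followed the number within set 7. With the replicate block 11 mRNAs were called for Aconiti high and 10 for Aconiti medium, the 12S and 16S log2 folds were 4.71 and 2.26 at the high dose, and none of the 17 results moved beyond these limits. The processing factor genes and the interaction were not refitted with the block, with length balance as a covariate or with single libraries left out. The factor genes were recounted with DESeq2 at the medium and low doses only. Depth limits none of the values of 12S and 16S, and it leaves the mitochondrial tRNAs untested.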
